A study of Mus musculus with 6 samples.

Results

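When a cell copies its DNA, it must also rebuild the chromatin and copy the DNA methylation marks on the new strands, and 9 genes of that machinery were followed here in mouse spleen RNA. They were Dnmt1, Uhrf1 and Hells (copying of DNA methylation), Chaf1a, Chaf1b, Asf1a and Asf1b (deposition of new histones), and Suv39h1 and Suv39h2 (methylation of histone H3 lysine 9). They were taken by symbol from a table of 24906 genes, and all 9 were found. The D3TA mice were 3 C57BL/6J mice whose Ccnd3 gene, encoding cyclin D3, had been edited with CRISPR/Cas9 to carry the T283A change (alanine in place of threonine). The comparison mice were 3 age-matched wild-type (WT) mice, and all 6 mice were 12 to 16 months old. Per the series record, the line was kept as heterozygotes, and D3TA mice of this age show severe signs of a myeloproliferative neoplasm, an overgrowth of blood-forming myeloid cells. Polyadenylated RNA of spleen cells gave 1 library per mouse, with 14944622 to 19456838 reads assigned to genes. The labels do not say whether the sequenced D3TA mice carried 1 or both altered alleles.

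DNMT1 restores methylation on newly made DNA, and UHRF1 reads hemimethylated CpG sites behind the fork and recruits it. HELLS, also called LSH, is a nucleosome remodeller needed for normal DNA methylation. CHAF1A and CHAF1B are the large and middle subunits of chromatin assembly factor 1 (CAF-1), which is tied to the fork clamp PCNA and deposits histones H3 and H4. ASF1A and ASF1B are sister chaperones that hand H3 and H4 to CAF-1. SUV39H1 and SUV39H2 place H3 lysine 9 trimethylation on pericentromeric heterochromatin. In blood-forming tissue these genes are known mainly from dividing cells, and several are known targets of E2F factors, which act downstream of cyclin D and RB. Bulk RNA cannot tell more dividing cells from more RNA per cell.

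The promoters of the 9 genes were searched for sequence motifs near the annotated start sites. RefSeq windows from 250 bases before to 50 after each annotated start (GRCm38.p6, the assembly also called mm10) were found for all 9 genes, 13 windows in all. An E2F-type motif was searched on both strands in 4 spellings: first TTGGCGC, with the second spelling TTCGCGC, with the third spelling TTCCCGC and with the fourth spelling TTGCCGC. At least 1 spelling was present in 7 of the 9 genes, against 10.9% of all 27025 genes, and in 8 of their 13 windows, against 9.57% of all 32851 windows. The cell cycle homology element TTTGAA was present in 3 of the 9 genes, against 20.2% of all genes. The letters CCAAT were present in 6 of the 9 genes, against 41.1% of all genes. Matches of one motif on opposite strands can overlap. The windows of the 9 genes held 2 to 37 CpG sites, where the median window held 7. Only the most upstream Dnmt1 window, at 2, held fewer than 7. All 4 E2F-type spellings contain CG, and the shares over all genes and windows are not matched for CpG content. Such matches describe the letters and do not show binding. Stretches with E2F-type matches in capitals are shown for Hells, Uhrf1, Dnmt1, Chaf1a and Suv39h1, read 5′ to 3′ on the gene's strand.
Hells: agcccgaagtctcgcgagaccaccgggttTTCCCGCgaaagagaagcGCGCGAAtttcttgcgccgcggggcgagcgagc
Uhrf1: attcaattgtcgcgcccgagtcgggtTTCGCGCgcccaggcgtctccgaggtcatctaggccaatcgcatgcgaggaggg
Dnmt1: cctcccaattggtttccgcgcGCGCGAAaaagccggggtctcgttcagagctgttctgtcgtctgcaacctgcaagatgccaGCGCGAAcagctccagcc
Chaf1a: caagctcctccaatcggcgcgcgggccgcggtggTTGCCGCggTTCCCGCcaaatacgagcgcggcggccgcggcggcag
Suv39h1: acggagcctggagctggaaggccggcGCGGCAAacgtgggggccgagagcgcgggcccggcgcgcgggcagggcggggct

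These stretches lie at chr19:38930900-38930979 (Hells, plus strand), chr17:56304103-56304182 (Uhrf1, plus strand, at the more downstream of 2 annotated starts), chr9:20952764-20952863 (Dnmt1, minus strand, at the most downstream of 3 annotated starts), chr17:56040326-56040405 (Chaf1a, plus strand) and chrX:8074372-8074451 (Suv39h1, minus strand, at the more downstream of 2 starts). Chaf1b and Suv39h2 also held E2F-type matches, 227 bases and 145 bases before the start, and Chaf1b a second one 27 bases after it. The 2 genes without one were the ASF1 sisters, and their promoters are shown up to the start, with CCAAT and TTTGAA matches on either strand in capitals. Asf1b (chr8:83955489-83955693, plus strand) held 4 CCAAT matches and a TTTGAA match 14 bases before the start. At least 4 CCAAT matches, a cut set at the Asf1b count, were found in 1.06% of all windows. The most upstream of the 3 Dnmt1 windows held 5 CCAAT matches and 1 TTTGAA match. Asf1a (chr10:53596756-53596960, plus strand) held 1 CCAAT match and no TTTGAA.
Asf1b: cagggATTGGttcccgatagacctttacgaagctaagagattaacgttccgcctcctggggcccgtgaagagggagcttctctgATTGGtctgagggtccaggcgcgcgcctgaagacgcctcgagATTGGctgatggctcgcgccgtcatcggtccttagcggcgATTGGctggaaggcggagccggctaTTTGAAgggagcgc
Asf1a: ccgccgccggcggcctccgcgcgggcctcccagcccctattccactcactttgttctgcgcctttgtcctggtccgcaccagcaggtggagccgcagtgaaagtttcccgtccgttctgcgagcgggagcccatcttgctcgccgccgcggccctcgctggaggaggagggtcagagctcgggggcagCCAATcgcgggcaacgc

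Spleens of D3TA mice carried more RNA of all 9 genes on average, by 1.39-fold for Suv39h2 to 2.86-fold for Chaf1a. Asf1b, Hells and Suv39h1 were higher in each of the 3 D3TA spleens than in any WT spleen. The other 6 genes overlapped between the groups. The spleen D3TA-1 was the highest of the 6 for all 9 genes. None of the 9 differences passed the test across all genes, so none is called a change here.

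Values are normalized read counts, that is, reads divided by a size factor per library. In each list of values the spleens stand in the order of their replicate numbers, 1 to 3. Each log2 difference is the D3TA mean less the WT mean of log2(normalized count + 1), from limma with its standard error (SE), and folds are that difference on a linear scale. Of 15564 genes tested, 0% had an adjusted p under 0.05 in limma, and 0 of the 9 genes did. At an unadjusted p under 0.05, limma had 9.91% of all genes in either direction. The adjusted p values of the 9 genes, over all genes tested, ran from 0.285 (Hells) to 0.792 (Suv39h2). At an unadjusted p under 0.05, 5 of the 9 genes were higher in D3TA, where 6.08% of all genes tested were, and 0 were lower, where 3.83% of all genes were. All 9 differences lay above 0, as did 54.5% of those of all genes. The 3 genes whose groups did not overlap compare with 8.18% of all genes with every D3TA value above every WT value, and 6.84% had every D3TA value below. The median difference of the 9 genes was 0.93, and that of all genes tested was 0.06. On recovered reads, edgeR's quasi-likelihood test and limma-voom called 0 genes of any kind, and DESeq2 called 2.54% of 18588 genes, 1.83% as higher, but 0 of the 9. At an unadjusted p under 0.05, 6 of the 9 were higher in edgeR, where 6.37% of all genes were. In DESeq2 it was 6 of the 9, where 8.32% of all genes were, and in limma-voom 5 of the 9, where 5.35% were. All 9 genes had enough reads for the test, between 71 and 4862 in a library.

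**Figure D1:**
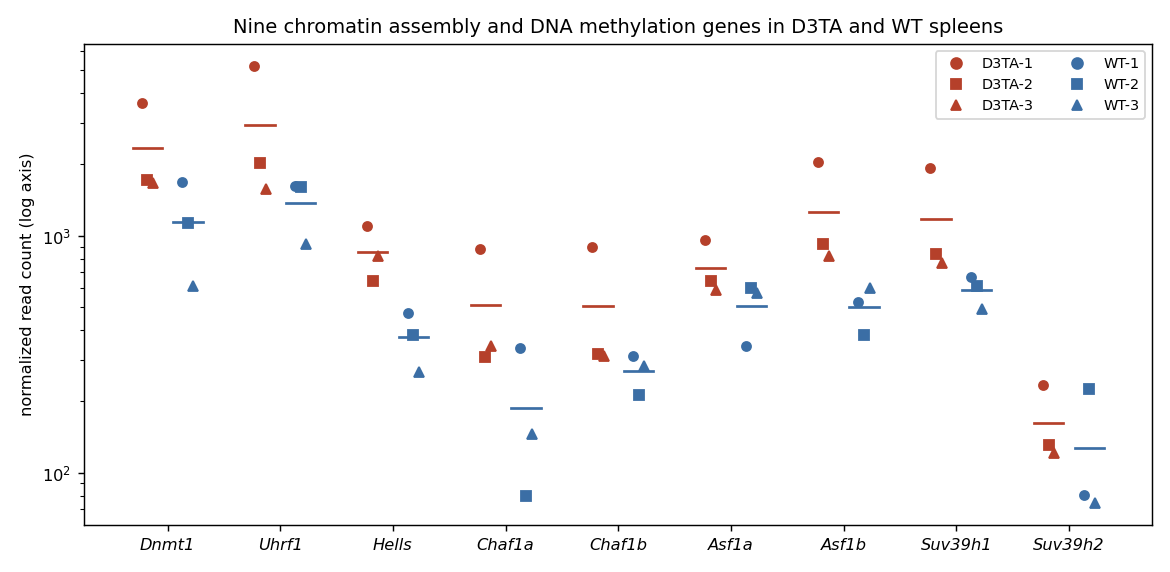
Normalized read counts of the 9 genes on a log axis, 1 point per library (D3TA in red to the left, WT in blue to the right, symbols for replicate numbers) with a bar at each group's mean. D3TA-1 is the top point for every gene, and the D3TA points lie clear of the WT points for Hells, Asf1b and Suv39h1.

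Among the genes that copy DNA methylation, Hells had groups that did not overlap, and Dnmt1 and Uhrf1 had groups that did. Hells (ENSMUSG00000025001, chromosome 19, 38930915 to 38971051) had normalized counts of 1100, 646 and 823 in the D3TA spleens, against 474, 379 and 267 in the WT spleens. The lowest D3TA spleen lay above the highest WT spleen. Its log2 difference was 1.20 ± 0.33 (SE), a 2.30-fold higher level with a 95% interval of 1.37 to 3.84, and its adjusted p in limma was 0.285. Its unadjusted p stayed under 0.05 in 21 of 21 alternative analyses, the only gene of the 9 for which this held.

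Dnmt1 and Uhrf1 had their largest value in the same spleen. Dnmt1 (ENSMUSG00000004099, chromosome 9, 20907209 to 20959888), the maintenance methyltransferase, had 3626, 1715 and 1672 in the D3TA spleens, against 1687, 1133 and 611 in the WT spleens. D3TA-2 and D3TA-3 lay beside WT-1, and WT-3 was the lowest. The log2 difference was 1.05 ± 0.43 (SE), 2.07-fold with a 95% interval of 1.07 to 4.01 and an adjusted p of 0.456 in limma. Uhrf1 (ENSMUSG00000001228, chromosome 17, 56303321 to 56323486), its recruiting partner, had 5208, 2023 and 1572 in the D3TA spleens, against 1617, 1597 and 926 in the WT spleens. D3TA-3 fell within the WT range. Its log2 difference was 0.93 ± 0.44 (SE), 1.91-fold with a 95% interval of 0.963 to 3.77. Without D3TA-1 the log2 difference was 0.42 for Uhrf1 and 0.68 for Dnmt1. With any one library left out, the log2 difference of Hells was at least 0.98.

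Of the CAF-1 subunits, Chaf1a had the larger average difference, and both overlapped between the groups. Chaf1a (ENSMUSG00000002835, chromosome 17, 56040439 to 56072289), the large subunit, had 877, 307 and 342 in the D3TA spleens, against 334, 79.5 and 146 in the WT spleens. WT-2 and WT-3 were low, while WT-1 lay between D3TA-2 and D3TA-3. The log2 difference was 1.52 ± 0.56 (SE), 2.86-fold with a 95% interval of 1.20 to 6.80 and an adjusted p of 0.419 in limma. It was 1.03 without WT-2 and 2.06 without WT-1. Chaf1b (ENSMUSG00000022945, chromosome 16, 93883901 to 93906115), the middle subunit, had 895, 316 and 309 in the D3TA spleens, against 309, 213 and 282 in the WT spleens. D3TA-2 and D3TA-3 were level with WT-1, and D3TA-1 stood far above. The fold was 1.67 with a 95% interval of 0.856 to 3.28, and without D3TA-1 the Chaf1b log2 difference was 0.24. The third CAF-1 subunit gene, Rbbp4, which also serves other chromatin complexes, was looked up after the values were seen and had a log2 difference of 0.06 ± 0.28 (SE).

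Of the ASF1 sisters, Asf1b had groups that did not overlap and Asf1a had groups that did. Asf1b (ENSMUSG00000005470, chromosome 8, 83955507 to 83970197), the sister linked to proliferating cells, had 2046, 925 and 817 in the D3TA spleens, against 525, 379 and 599 in the WT spleens. All 3 D3TA spleens lay above all WT spleens. The Asf1b log2 difference was 1.23 ± 0.38 (SE), 2.35-fold with a 95% interval of 1.30 to 4.23 and an adjusted p of 0.344 in limma. The unadjusted p was under 0.05 in 20 of 21 alternative analyses, the exception being the fit without D3TA-1 and WT-2 together. Asf1a (ENSMUSG00000019857, chromosome 10, 53596757 to 53609225), which also hands H3.3 to the replication-independent chaperone HIRA, had 955, 642 and 588 in the D3TA spleens, against 343, 600 and 574 in the WT spleens. D3TA-3 lay within the WT range. Its log2 difference was 0.54 ± 0.34 (SE), 1.45-fold with a 95% interval of 0.865 to 2.43, and it was 0.28 without WT-1.

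Of the SUV39H sisters, Suv39h1 had groups that did not overlap and Suv39h2 had groups that did. Suv39h1 (ENSMUSG00000039231, chromosome X, 8061171 to 8074760) had 1930, 835 and 763 in the D3TA spleens, against 672, 613 and 489 in the WT spleens. The groups did not overlap, though D3TA-3 exceeded WT-1 by little. The Suv39h1 log2 difference was 0.87 ± 0.38 (SE), 1.83-fold with a 95% interval of 1.02 to 3.27 and an adjusted p of 0.487 in limma. Suv39h2 (ENSMUSG00000026646, chromosome 2, 3455815 to 3475031), the gene of lowest mean, had 233, 130 and 121 in the D3TA spleens, against 80.2, 225 and 74.4 in the WT spleens. WT-2 was nearly as high as D3TA-1. Its log2 difference was 0.48 ± 0.52 (SE), 1.39-fold with a 95% interval of 0.631 to 3.08, and 0.99 without WT-2.

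**Figure D2:**
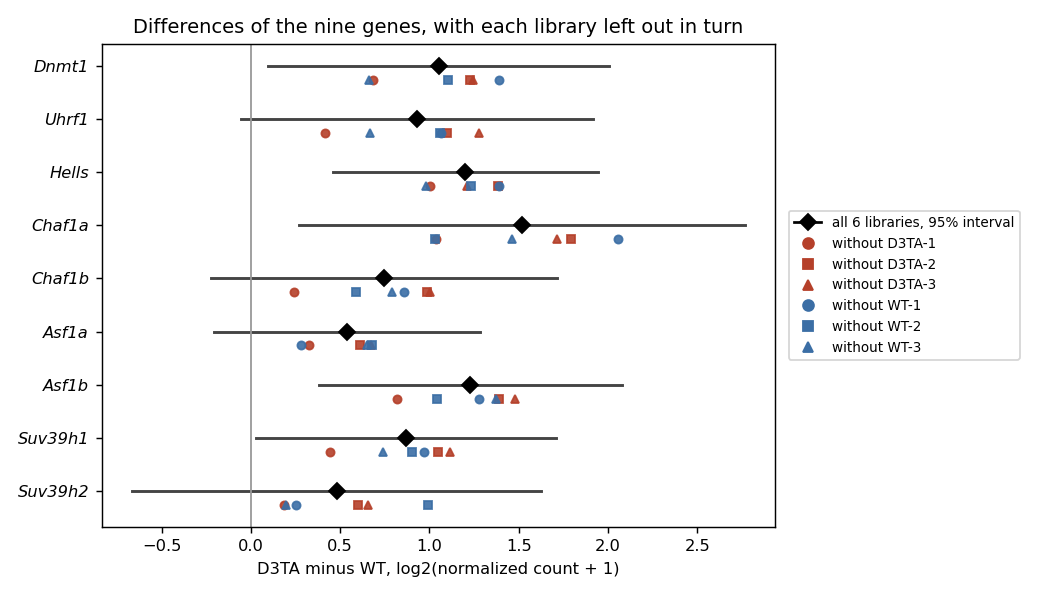
Log2 differences (D3TA minus WT) of the 9 genes with 95% limma intervals (black), and the same difference with each library left out (coloured symbols). All left-out values are above 0, and leaving out D3TA-1 gives the lowest value for Uhrf1 (0.42), Chaf1b (0.24), Asf1b (0.82), Suv39h1 (0.45) and Suv39h2 (0.18).

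Annotated genes on the opposite strand overlap 4 of the 9. The library protocol describes no strand-marking step, and how reads in shared exons were assigned is not given. Reads of the overlapping genes may therefore be mixed there. Mcm9 shares 1748 of the 3638 annotated exon bases of Asf1a (48.0%) and averaged 219 in D3TA and 144 in WT. Ubxn6 shares 4648 of the 8854 exon bases of Chaf1a (52.5%) and averaged 147 in D3TA and 251 in WT. Smaller stretches overlap Suv39h1 (Gm14820, 14.6%) and Suv39h2 (Dclre1c, 8.10%, and Gm13184, 1.88%). Dnmt1, Uhrf1, Hells, Chaf1b and Asf1b had no such exon overlap.

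The libraries differed in more than genotype, and these differences touch the results above. D3TA-1 exceeded the mean of D3TA-2 and D3TA-3 by 1.497-fold (Hells) to 2.90-fold (Uhrf1) for the 9 genes, with a median of 2.35, where the median over all genes tested was 0.989. Without D3TA-1 the median difference of the 9 genes was 0.45, and 2 of them, Asf1b and Hells, kept an unadjusted p under 0.05. In that limma fit 455 of 15564 genes tested were higher in D3TA at an unadjusted p under 0.05. Transcripts from the Y chromosome were present in D3TA-3 and WT-1 and near 0 in the other 4. Between the libraries without them (D3TA-1 and D3TA-2 against WT-2 and WT-3) the median difference of the 9 genes was 1.40 and all 9 lay above 0. Between D3TA-3 and WT-1, a single pair with no replicate, it was 0.18. In that pair Dnmt1, Uhrf1, Chaf1a and Chaf1b differed by -0.01, -0.04, 0.03 and -0.00016, while Hells, Asf1a, Asf1b and Suv39h2 differed by 0.80, 0.78, 0.64 and 0.59. The X-linked Suv39h1 differed by 1.21 in the libraries without Y-linked reads and by 0.18 in the pair with them. A drop between these splits was not particular to the X-linked gene. The autosomal Chaf1a and Dnmt1 fell further, from 2.26 and 1.58 without Y-linked reads, as did Uhrf1 and Chaf1b. Asf1b and Hells fell less, and Asf1a and Suv39h2 differed more in the pair. WT-2 listed 8449 genes at 0, against 3193 to 5170 elsewhere.

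The libraries also differed in marker genes of cell types and of mitosis. Of 8 marker lists, the summed level did not overlap between the groups for 4 and overlapped for the other 4, and no marker passed limma's test across all genes. Summed hemoglobin reads were 6.39% to 6.75% of all reads in D3TA-1, D3TA-2 and WT-3 and 1.40% to 1.91% in D3TA-3, WT-1 and WT-2, a split that does not follow genotype. Between the libraries with the high share the median difference of the 9 genes was 1.37, with WT-3 as the only WT library. Between those with the low share it was 0.27, with D3TA-3 as the only D3TA library, and Uhrf1 (-0.03) and Suv39h2 (-0.15) lay below 0. All 4 early neutrophil markers were higher on average, with a summed level of 6707 to 43685 in D3TA and 959 to 1601 in WT. The 6 late neutrophil markers summed to 73274 to 400661 in D3TA and 10783 to 26260 in WT, with Mmp8 at 0 in a library. The 6 mitosis markers summed to 10065 to 49669 in D3TA and 4808 to 7283 in WT, highest in D3TA-1. The 8 B cell markers, all lower on average and 0 of them at 0 in any library, summed to 9637 to 33016 in D3TA and 58277 to 68740 in WT. All 8 erythroid markers had log2 differences above 0. Their sum overlapped between the groups (144830 to 887466 in D3TA, 108114 to 613445 in WT), and Hba-a1 made up most of it. Slc4a1, Tfrc and Klf1, looked up after their values were seen, were highest in D3TA-1, as were all 9 genes, while Hbb-bt was highest in WT-3. The 7 T cell markers, 0 of them above 0, also overlapped in sum (3115 to 10951 in D3TA, 9371 to 14201 in WT). So did the 4 megakaryocyte markers, 4 of them above 0 (4061 to 9004 in D3TA, 3250 to 4808 in WT). The 4 red pulp macrophage markers, 1 of them above 0, overlapped too (10729 to 21670 in D3TA, 16077 to 30754 in WT). The part of these cell types, or of dividing cells, in the differences of the 9 genes was not tested.

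Set beside genes of the replication fork in the same library, the 9 genes no longer stood higher in D3TA as a group. The yardstick was the mean log2 value of 16 replication genes (Pcna, the Mcm2 to Mcm7 helicase genes, primase, clamp loader and ligase genes among them), which averaged 10.2 ± 0.63 in the D3TA spleens and 9.30 ± 0.29 in the WT spleens (SD over 3 each). Relative to it, the median difference of the 9 genes was 0.02, with 5 genes above 0 and 4 below, and 8 of the 9 overlapped between the groups. Asf1b was the gene that did not overlap, at 0.06, 0.02 and -0.18 log2 units from the yardstick in the D3TA spleens, against -0.44, -0.39 and -0.21 in the WT spleens. D3TA-3 and WT-3 were nearly level. On this scale 1.31% of all genes tested had every D3TA value above every WT value and 33.2% had every D3TA value below, on subtracting a yardstick that was itself higher in D3TA. Dnmt1 was 0.89, 0.91 and 0.85 in the D3TA spleens, a narrow span, against 1.24, 1.18 and -0.19 in the WT spleens, where WT-3 stood far below. For 8 of the 9 genes the range over the 6 libraries was narrower on this scale than before. The exception was Suv39h2, which stood at -1.15 in WT-2 and between -3.21 and -2.80 in the other 5. The median relative difference was 0.28 without WT-2 and -0.25 without WT-3, so its sign turned with the library left out. Fen1, a flap nuclease in the yardstick, is listed at 0 in WT-2, which lowers the yardstick there and raises every WT-2 value on this scale. Without Fen1 the yardstick was 9.70, 9.56 and 9.69 in the WT spleens, where with Fen1 it was 8.97 in WT-2. The WT-2 value was then 0.58 for Dnmt1 and -1.74 for Suv39h2. Without Fen1 the median relative difference was 0.07 and Asf1b still did not overlap.

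**Figure D3:**
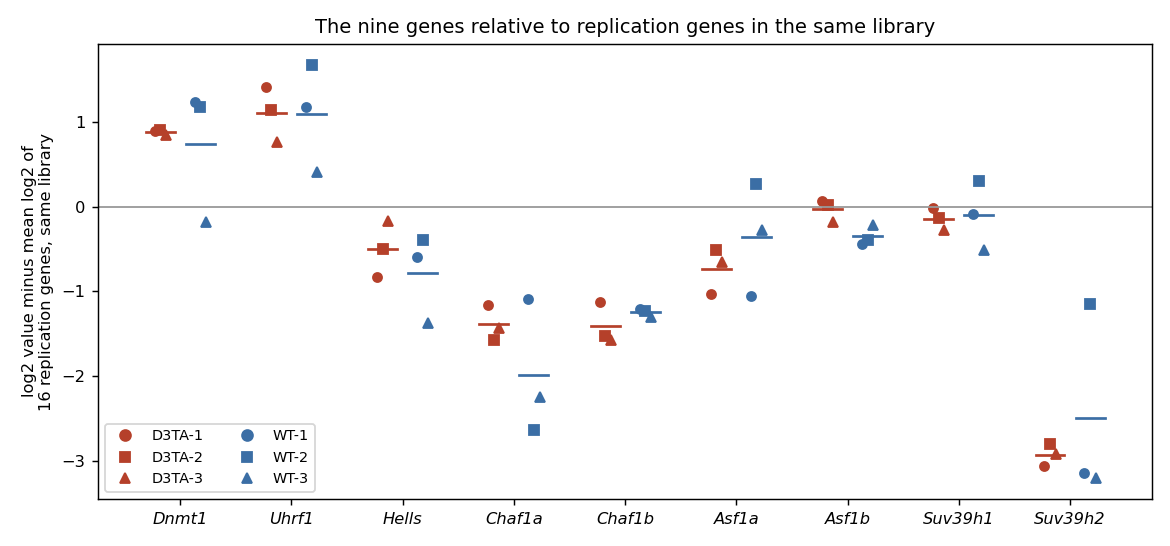
Log2 values of the 9 genes minus the mean log2 value of 16 replication genes in the same library, with D3TA left and WT right and bars at group means. The groups overlap for 8 genes, Asf1b lies higher in all 3 D3TA libraries, and WT-2 stands apart for Suv39h2.

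Ratios within a library do not depend on how libraries are scaled, and 5 were compared between the groups. They are not corrected for length and are read only across libraries. Asf1b over Asf1a was 2.14, 1.44 and 1.39 in the D3TA spleens, against 1.53, 0.632 and 1.04 in the WT spleens. Chaf1a over Chaf1b was 0.980, 0.971 and 1.11 in the D3TA spleens, nearly constant, against 1.08, 0.374 and 0.517 in the WT spleens. Suv39h1 over Suv39h2 was 8.27, 6.41 and 6.31 in the D3TA spleens, against 8.37, 2.73 and 6.57 in the WT spleens. The 3 ratios overlapped between the groups. Uhrf1 over Dnmt1 was 1.44, 1.18 and 0.941 in the D3TA spleens, against 0.959, 1.41 and 1.52 in the WT spleens, and it too overlapped. Dnmt3a, the de novo methyltransferase, over Dnmt1 was 0.152, 0.39988 and 0.467 in the D3TA spleens, against 0.428, 0.542 and 0.693 in the WT spleens. D3TA-1 was far below the rest, and D3TA-3 lay within the WT range. Exact permutation tests of the log2 ratios over the 6 libraries (two-sided, smallest possible p 0.1) gave p values from 0.2 for Dnmt3a over Dnmt1 to 0.9 for Suv39h1 over Suv39h2, and adjusted p values of 0.5 to 0.9 over the 5 ratios. With 3 libraries against 3 this test cannot reach 0.05.

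**Figure D4:**
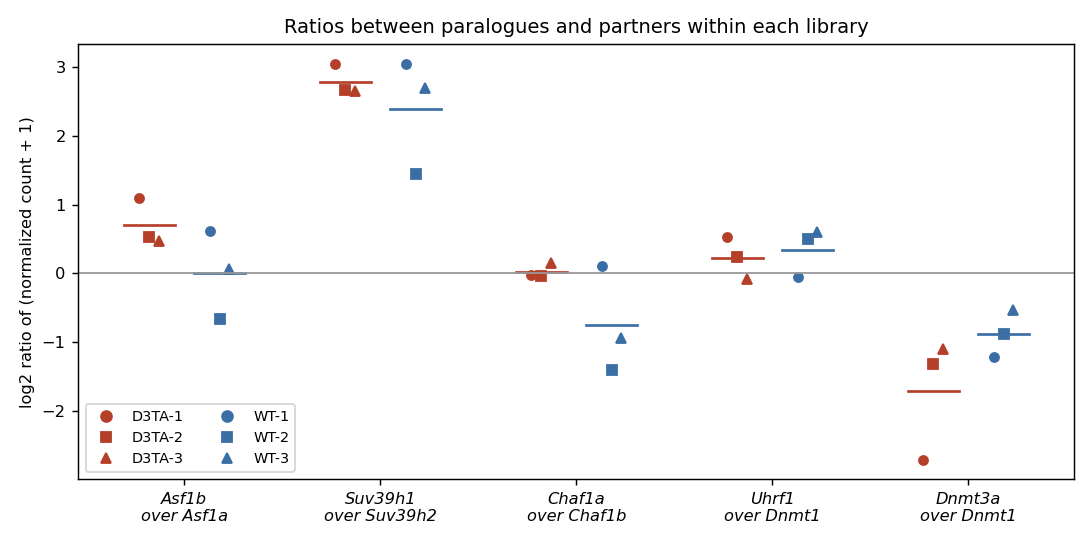
Log2 ratios of 5 gene pairs in each library, with D3TA left and WT right and bars at group means. All 5 pairs overlap between the groups, and Chaf1a over Chaf1b is tight in D3TA (0.971 to 1.11 as linear ratios) and wide in WT (0.374 to 1.08).

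Levels between genes were compared as normalized counts per kilobase of the principal annotated transcript. In D3TA spleens Uhrf1 stood highest at 818 ± 553, then Asf1b at 706 ± 381, Dnmt1 at 436 ± 208, Suv39h1 at 377 ± 210, Asf1a at 331 ± 90.1, Chaf1b at 264 ± 175, Hells at 146 ± 39.0, Chaf1a at 91.9 ± 57.7 and Suv39h2 at 37.3 ± 14.4 (SD, n = 3). In WT spleens Uhrf1 stood highest at 385 ± 110, followed by Asf1b at 280 ± 62.6, Asf1a at 230 ± 64.3, Dnmt1 at 213 ± 100, Suv39h1 at 190 ± 29.9, Chaf1b at 139 ± 26.0, Hells at 63.6 ± 17.7, Chaf1a at 33.7 ± 23.9 and Suv39h2 at 29.2 ± 19.7 (SD, n = 3). Neighbours in the D3TA order overlapped in their ranges except Chaf1a and Suv39h2. Neighbours in the WT order overlapped except Chaf1b (111 to 161) and Hells (45.5 to 80.7). The clamp gene Pcna stood far above them, at 4922 ± 2085 in D3TA and 3294 ± 649 in WT. Lengths of transcripts set these values: per kilobase of all annotated exons, Chaf1a (21.1) stood below Suv39h2 (28.7) in WT.

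Of 5 related lists, the replication genes had a median difference near that of the 9, the other 4 had smaller ones, and 0 genes of the lists passed limma's test across all genes. Of 13 tested genes of DNA methylation and demethylation 11 lay above 0, with a median difference of 0.37 (0.24 without D3TA-1), and 1 was higher at an unadjusted p under 0.05. That gene was Tet2, which oxidises methylcytosine and is mutated in human myeloid neoplasms, at 329, 473 and 309 in the D3TA spleens, against 186, 134 and 135 in the WT spleens. The groups did not overlap. In each list the 2 genes of smallest p were named, a choice that favours groups without overlap. Of these 13 genes, 2 had every D3TA value above every WT value, against 8.18% of all genes. The Tet2 log2 difference was 1.27 ± 0.35 (SE), and limma gave it an adjusted p of 0.281. Tdg, a glycosylase that removes some oxidised forms of methylcytosine, was at 0.70 ± 0.36 (SE). The de novo enzyme genes had log2 differences of 0.22 ± 0.31 (SE) for Dnmt3a and 0.45 ± 0.58 (SE) for Dnmt3b. Dnmt3b was named after its values were seen. Dnmt3l was too low to be tested.

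Of 19 other histone chaperone and supply genes 18 lay above 0, with a median difference of 0.33. That median was 0.13 without D3TA-1. Hjurp, which deposits the centromeric histone CENP-A, had 3849, 2362 and 1783 in the D3TA spleens, against 1074, 668 and 734 in the WT spleens. The groups did not overlap, as held in this direction for 2 of the 19 genes, against 8.18% of all genes. Hjurp was named for its small p. The Hjurp log2 difference was 1.65 ± 0.35 (SE), and its adjusted p was 0.175 in limma, 0.00304 in DESeq2 and 0.0248 in limma without D3TA-3. Mms22l, the partner of TONSL, a reader of new histones behind the fork, had a log2 difference of 1.48 ± 0.50 (SE). Of 12 other heterochromatin genes 9 lay above 0, with a median of 0.12. That median was 0.05 without WT-3, and 0.22, 0.19 and 0.24 without D3TA-2, WT-2 and WT-1. Cbx5, which encodes HP1 alpha, a reader of the mark that SUV39H enzymes place, was at 0.96 ± 0.38 (SE), and the histone H4 lysine 20 methyltransferase Kmt5c at 1.23 ± 0.54 (SE). Kmt5c was at 2803, 1270 and 449 in the D3TA spleens, against 473, 482 and 537 in the WT spleens, so D3TA-3 was the lowest of the 6, and without D3TA-3 its adjusted p in limma was 0.0279.

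Of 9 HELLS partners and chromatin remodellers 7 lay above 0, with a median of 0.31. With a library left out, that median was 0.07 (without WT-3) to 0.57 (without WT-1), and it was 0.13 without D3TA-1 and 0.51 without D3TA-2. Cdca7, the partner that brings HELLS to chromatin, had 3005, 1318 and 964 in the D3TA spleens, against 748, 900 and 776 in the WT spleens. The groups did not overlap, as held in this direction for 1 of the 9 partners and remodellers, against 8.18% of all genes. Cdca7 was named for its small p. The Cdca7 log2 difference was 0.96 ± 0.40 (SE), and limma gave it an adjusted p of 0.465. Cdca7l, a relative of Cdca7, was at 1.16 ± 0.44 (SE). Zbtb24, a zinc finger gene of the same list that was looked up after its values were seen, had groups that did not overlap in the other direction. It had 281, 305 and 252 in the D3TA spleens, against 342, 388 and 360 in the WT spleens, with a log2 difference of -0.38 ± 0.30 (SE). All 16 replication genes lay above 0, as did 54.5% of all genes, with a median of 0.89. Of the 16, 7 were higher at an unadjusted p under 0.05, as were 6.08% of all genes. Their median was 0.48 without D3TA-1 and 0.39 without D3TA-1 and WT-2 together. Among them Pola1, the catalytic subunit of primase-coupled DNA polymerase alpha, was at 1.25 ± 0.36 (SE), Mcm6 at 1.21 ± 0.35, Mcm2 at 0.78 ± 0.43 and Pcna at 0.52 ± 0.35. The edited gene Ccnd3 itself was at 0.51 ± 0.41 (SE), and its counts do not check a codon change.

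**Figure D5:**
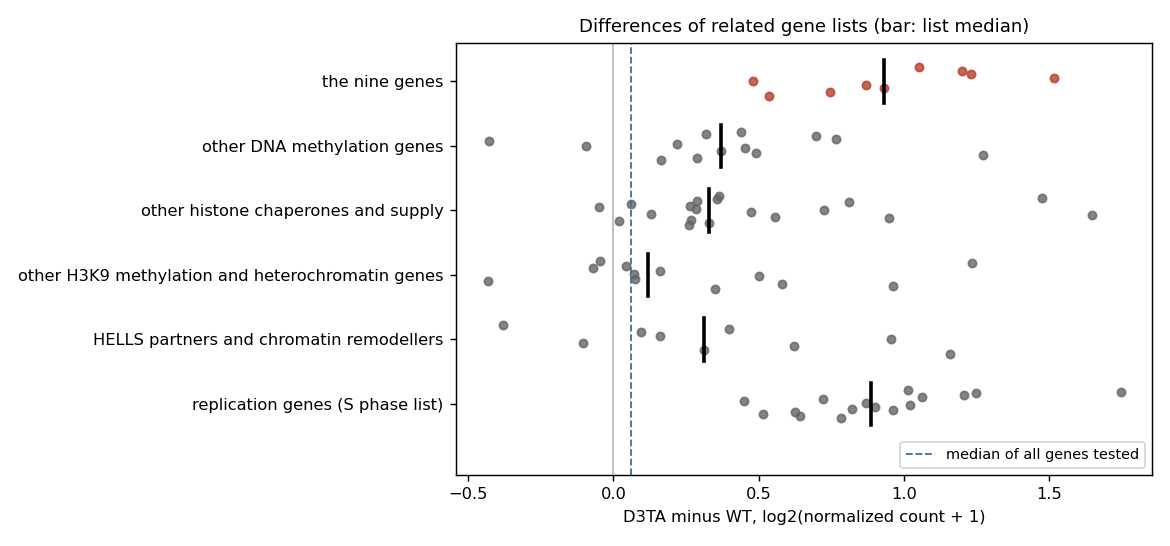
Log2 differences (D3TA minus WT) of each tested gene in the 9-gene set and 5 related lists, 1 point per gene, with a black bar at the list median and a dashed line at the median of all genes tested. The medians of the 9 genes (0.93) and of the replication genes (0.89) lie near each other, and those of the other 4 lists lie between 0.12 and 0.37, values that change when a library is left out.

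The 9 genes followed each other over the libraries to unequal degrees. The mean of their standardised log2 values was 1.59, 0.15 and 0.07 in the D3TA spleens, against -0.43, -0.50 and -0.88 in the WT spleens. Each gene's Pearson correlation with the mean of the other 8 over the 6 libraries, a description in which D3TA-1 was the highest library throughout, was highest for Suv39h1 (0.993) and Uhrf1 (0.955) and lowest for Asf1a (0.656) and Suv39h2 (0.553). The 5 genes outside the set whose pattern was most like its mean were Rif1, Col5a1, Kif4, Zfp808 and Kpna2, with correlations of 0.993 to 0.997 over 6 libraries. A correlation above 0.9 was reached by 3.32% of 15555 genes. Rif1, a regulator of replication timing, had 900, 540 and 539 in the D3TA spleens, against 413, 424 and 362 in the WT spleens. Kif4, a chromosome-bound kinesin of mitosis, had 1157, 439 and 341 in the D3TA spleens, against 230, 233 and 158 in the WT spleens. Col5a1, a fibrillar collagen gene, had 1072, 299 and 301 in the D3TA spleens, against 216, 168 and 121 in the WT spleens. Since these genes were picked for their likeness to the pattern of the 9, the order of their libraries was set by that choice.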

How the data were processed

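RNA of spleen cells from 3 D3TA and 3 WT mice was sequenced, 1 library per mouse. Tools and a build are named, without roles, in the submitters' processing notes (HISAT2, Trim Galore, FastQC, CASAVA, DESeq2, mm10); the counting program and annotation are not given in the sources used here. The deposited values are a normalized signal: each library's gene counts, scaled by the authors with 1 factor per library. Dividing each column by its smallest value above 0 gave whole reads within 0.001 for 100% of 149436 values. GENCODE M21 held 24895 of 24906 gene identifiers.

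A gene was tested if 3 or more libraries had 10 or more normalized counts. limma 3.58.1 in R 4.3.3 was run on the log2 scale after adding 1 (two-sided, trend and robust options, Benjamini-Hochberg at 0.05), with genotype as the only factor. A count of 3 reads corresponds to 2.59 to 3.36 normalized counts, depending on the library, and is no measure of the error between mice. Alternatives were other scalings, filters and pseudocounts, libraries left out, a replicate block, terms for Y-linked reads and hemoglobin share, limma-voom, edgeR 4.0.16 and DESeq2 1.42.0 on recovered reads. Members and lists were chosen with earlier results of these data known. Named genes were the 9, Ccnd3, Pcna, Mcm2, the 2 genes of smallest p per list and the 5 most alike in pattern; the text says where others were added after their values were seen. Figures used Python 3.11.15 with matplotlib 3.10.9. Promoter sequences are RefSeq's on GRCm38.p6.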

Additional observations from a re-analysis of the deposited data

How the results depend on the processing

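All 9 genes lay above 0 in all 21 alternatives, which reuse the same 6 libraries, and 0 of the 9 passed the adjusted threshold in any. In the splits given above, 6 of the 9 lay above 0 between D3TA-3 and WT-1, and 7 between the libraries with the low hemoglobin share. All 9 did in the other splits. Over the alternatives the median log2 difference of the 9 ran from 0.45 to 1.21, both ends reached by leaving out a D3TA library (D3TA-1 and D3TA-3). The count of the 9 at an unadjusted p under 0.05, 5 as reported, was 2 to 7 with a library left out, with 2 when D3TA-1, WT-3 or WT-2 was dropped, and 1 when D3TA-1 and WT-2 were both dropped. Of all 15564 genes, limma then had 455 (without D3TA-1) to 1473 (without D3TA-3) higher at that level with a single library left out. It had 724 without WT-2, 1006 without WT-3, and 442 without D3TA-1 and WT-2 together. Over all genes tested, limma's count of 0 calls became 44 with no filter on low values, 15 with the term for Y-linked reads, 11 with the term for hemoglobin share and 472 in DESeq2, and was 0 to 306 with a library left out, the 306 without D3TA-3. At an unadjusted p under 0.05 limma had 946 genes higher and 596 lower in D3TA, against 1160 and 439 with library size scaling and 794 and 727 with upper quartile scaling. The median of the 9 relative to the replication genes was -0.25 to 0.28 with a library left out. With a library left out, the log2 difference of Asf1b over Asf1a was 0.36 (without WT-2) to 0.998, of Chaf1a over Chaf1b 0.44 (without WT-2) to 1.20 (without WT-1), and of Dnmt3a over Dnmt1 -1.14 to -0.33 (without D3TA-1). That of Suv39h1 over Suv39h2 was -0.09 (without WT-2) to 0.72 (without WT-1), and that of Uhrf1 over Dnmt1 -0.32 (without WT-1) to 0.04 (without D3TA-3), so both turned in sign. Calls in the related lists changed from 0 to 1 for the chaperone list (Hjurp, in DESeq2) and were 0 to 1 with a library left out for the chaperone and heterochromatin lists. The cause of these shifts was not tested. Over all genes tested, libraries with the same replicate number did not deviate together (correlations of -0.06, -0.005 and -0.13). These values give no sign of pairing but cannot exclude it for single genes. The limma fit with a replicate block called 0 genes. It had 6 of the 9 at an unadjusted p under 0.05, where 932 of 15564 genes were higher in D3TA at that level. The lists' and the relative values' alternatives were chosen after seeing the data. Nothing says that litters or days were shared, and 3 mice per group limit every value.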
